A study of Mus musculus with 6 samples.

Results

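CYTB, COX1, COX2, COX3, ATP6 and ATP8 are the mitochondrially encoded messenger RNAs (mRNAs) for subunits of respiratory complexes III, IV and V. They were taken by symbol from a table of read counts with 44792 gene rows. All 6 were found, and all 6 passed the filter on low counts. The table holds 3 hearts of mice with the R193H mutation of cTnI, cardiac troponin I, which keeps heart muscle relaxed when calcium is low, and 3 wild type hearts. All animals were C57BL/6 mice, 3 months old and without treatment. Each heart gave 1 library, from total RNA of whole heart tissue. The sources used here do not give how the R193H allele was made, whether 1 or both copies of the gene carried it, or how RNA was selected.

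Mitochondrial DNA is transcribed as long precursors that cover nearly a whole strand, and most mRNAs are cut out of them where transfer RNAs lie between the genes. The products are membrane subunits around which nuclear-encoded subunits assemble. CYTB is cytochrome b of complex III, which passes electrons from ubiquinol to cytochrome c. COX1 and COX2 carry the haem and copper centres of complex IV, cytochrome c oxidase, and COX3 is the remaining core subunit. ATP6 and ATP8 are membrane subunits of ATP synthase, complex V, and ATP6 forms part of the proton path. Heart muscle depends on this machinery for nearly all of its ATP.

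On the mitochondrial chromosome (GRCm38, plus strand), COX1 lies at 5328 to 6872, COX2 at 7013 to 7696, ATP8 at 7766 to 7969, ATP6 at 7927 to 8607, COX3 at 8607 to 9390 and CYTB at 14145 to 15288. None has introns. ATP8 and ATP6 share 43 bases, and ATP6 and COX3 share 1 base, so reads over these stretches belong to a pair of genes. The sequences below show both overlaps, with the shared bases in capitals; they were read from the GENCODE M21 transcripts of GRCm38.
ATP8 and ATP6, chrM:7912-7984: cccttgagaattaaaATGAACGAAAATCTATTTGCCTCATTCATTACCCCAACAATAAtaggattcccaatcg
ATP6 and COX3, chrM:8587-8627: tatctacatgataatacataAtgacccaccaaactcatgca

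The nuclear genome holds copies of mitochondrial sequence, and a read from a copied stretch can map to both places. Over its first 681 of 684 bases COX2 was identical, base for base, to the GENCODE pseudogene Gm28661 on chromosome 1. ATP6 was identical to Gm10925 over 678 of 681 bases, and COX3 to Gm28437 over 783 of 784 bases. The first 60 bases of COX2 and COX3 are shown beside those of their copies (the minus strand of chromosome 1), with the start codon of the mitochondrial gene in capitals.
COX2, chrM:7013-7072: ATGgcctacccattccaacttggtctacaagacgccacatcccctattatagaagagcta
Gm28661, chr1:24615506-24615565: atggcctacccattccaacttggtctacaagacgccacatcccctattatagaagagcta
COX3, chrM:8607-8666: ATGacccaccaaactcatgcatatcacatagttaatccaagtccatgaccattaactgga
Gm28437, chr1:24613912-24613971: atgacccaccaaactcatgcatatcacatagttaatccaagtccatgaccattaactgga

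On chromosome 1, COX1 was copied in part. Its last 492 bases aligned with Gm29216 (chromosome 1) with 6 differences, T1056A, C1057T, A1059G, A1060G, C1062A and A1066T, written as the COX1 base, its position from the start of COX1, and the base of the copy. The last 479 bases were identical. Copies with more differences are annotated on chromosome 2: Gm13340, as long as COX1 at 1545 bases, whose longest run identical to COX1 was 148 bases, and Gm13341, 672 bases long, whose longest run identical to COX2 was 173 bases. The junction with Gm29216 is shown with the differing bases in capitals.
COX1, chrM:6381-6440: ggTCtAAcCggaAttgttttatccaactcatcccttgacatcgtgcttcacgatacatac
Gm29216, chr1:24616138-24616197: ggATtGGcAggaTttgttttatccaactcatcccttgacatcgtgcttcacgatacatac

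As a measure of such sharing, every stretch of 100 bases of an mRNA was looked up in all annotated nuclear transcripts, on both strands. The share found there was 99.5% for COX2, 99.5% for ATP6, 99.9% for COX3, 30.8% for COX1 and 0% for CYTB. ATP8 also had 0%, but its last 43 bases, shared with ATP6, lie within the stretch identical to Gm10925. They are shorter than any window used, the shortest being 50 bases. On chromosome 1, 233 bases without annotation separate Gm10925 from Gm28661. On the mitochondrial chromosome 233 bases likewise separate the copied part of COX2 from ATP6, and ATP8 begins within these. That chromosome 1 stretch was not read here. The sources used here give neither the read length nor how reads with several matches were counted. The counts of COX2, COX3, ATP6 and possibly ATP8 are therefore uncertain as levels, and so are those from the copied part of COX1.

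COX1 was the most abundant member in every heart, followed by CYTB, and the other 4 lay far below. Levels are in CPM, counts divided by the library total (adjusted by edgeR's TMM library factor) and given on a common scale, here also divided by gene length. COX1 had 109314, 87313 and 110733 CPM per kb in R193H replicates 1, 2 and 3, against 112673, 116436 and 111309 CPM per kb in wild type replicates 1, 2 and 3. CYTB averaged 40959 ± 5589 CPM per kb in R193H hearts and 49436 ± 2176 CPM per kb in wild type hearts (SD, n = 3 each). COX1 exceeded CYTB per kb by 2.15 to 2.60 times within each of the 6 hearts. This ratio uses the full length of COX1, including the part copied on chromosome 1.

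Below CYTB the level per kb dropped by more than 100-fold in every heart. CYTB was 141 to 163 times COX2 per kb in R193H hearts and 153 to 182 times in wild type hearts. Levels per kb were 255 ± 39.5 CPM in R193H and 313 ± 45.5 CPM in wild type hearts for ATP8 (SD, n = 3 each). For COX2 they were 273 ± 30.7 CPM in R193H and 301 ± 34.3 CPM in wild type hearts. These neighbours changed places between hearts: COX2 stood above ATP8 in R193H replicates 1 and 2 and in wild type replicate 3, and below it in the other 3. ATP6 (169 ± 26.0 in R193H, 218 ± 19.8 CPM per kb in wild type) and COX3 (149 ± 7.19 in R193H, 210.5 ± 33.5 CPM per kb in wild type) were lowest. ATP6 exceeded COX3 per kb in 5 of 6 hearts, by at most 1.28 times.

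The complex I mRNAs, with the ND symbols, show the same division. ND3 and ND4L, with 97.6% and 98.5% of 100-base stretches found in nuclear transcripts, had 98.3 and 129 CPM per kb in wild type hearts. ND1, ND2 and ND5, with 0% to 3.2%, had 23749 to 45500 CPM per kb there, and ND4, with 60.8%, had 16166 CPM per kb. ND6, encoded on the other strand with 0%, had 1271 CPM per kb in wild type hearts. Of the mRNAs with 0% of 100-base stretches found in the annotated transcripts searched, ATP8 had the lowest level. Its 43 bases shared with ATP6 are too short to count in this measure. The part of sequence sharing in these levels was not tested.

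**Figure D1:**
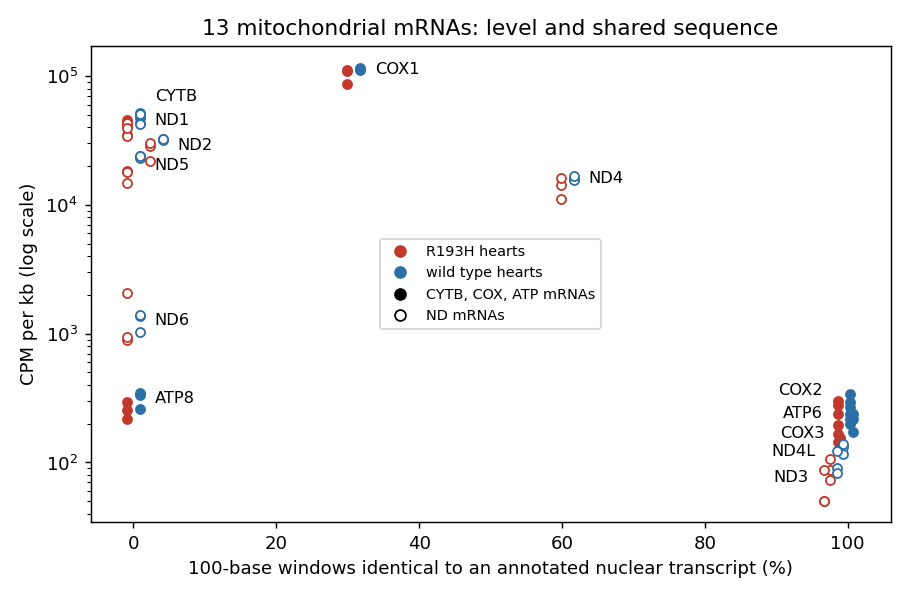
Level per kb (CPM per kb, log scale) of the 13 mitochondrial mRNAs in each heart against the share of 100-base windows identical to an annotated nuclear transcript; red points are R193H and blue points wild type hearts (set slightly apart sideways), filled for CYTB, COX and ATP mRNAs and open for ND mRNAs. COX2, ATP6 and COX3 sit at 99.5% to 99.9% with 141 to 338 CPM per kb, CYTB at 0% with 34899 to 51665, and ATP8 at 0% with 217 to 345.

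The study compared gene expression in hearts of cTnI mutant and wild type mice. All 6 mRNAs had lower means in R193H hearts, with a median log2 fold change of -0.28, and none passed the threshold of edgeR's quasi-likelihood test (Benjamini-Hochberg adjusted p under 0.05 over 14370 genes). Over all genes tested, 50.1% had a lower mean, the median log2 fold change was -0.00036, and 1 gene was called (0.00696%). That gene was TrnL1, a mitochondrially encoded transfer RNA (log2 fold change -0.94, edgeR adjusted p = 0.0063). At an unadjusted p under 0.05 there were 3 of the 6 (COX3, ATP6 and CYTB), against 5.73% of all genes. DESeq2 called 1 member, COX3, among 42 genes in all (0.292% of 14365 with an adjusted p). edgeR with no low-count filter called COX3 among 38 genes (0.16% of 23755), and limma-voom called 0 members and 1 gene (0.00696%). On the TMM scale 4 of the 6 had every R193H heart below every wild type heart, as did 5.8% of all genes, and 0 had every R193H heart above, as did 6.02%.

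CYTB had 48122, 39925 and 52523 CPM in R193H replicates 1, 2 and 3, against 56427, 54132 and 59105 CPM in wild type replicates 1, 2 and 3. The groups did not overlap, and R193H replicate 2 was the lowest heart by a wide margin. edgeR gave a log2 fold change of -0.27 (SE 0.11, adjusted p = 0.80), and -0.17 without R193H replicate 2. As a share of all counts, with no library factor, CYTB took 4.90%, 4.46% and 5.25% in R193H hearts and 5.40%, 5.12% and 5.71% in wild type hearts, and the groups overlapped.

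Of the complex IV mRNAs, COX1 had 168890, 134899 and 171082 CPM in R193H hearts, against 174080, 179893 and 171973 CPM in wild type hearts. R193H replicates 1 and 3 lay just under the wild type range and replicate 2 far under it. In edgeR it stood at -0.15 on the log2 scale (SE 0.10, adjusted p = 0.90), and at -0.043 without R193H replicate 2. COX1 alone took 17.2%, 15.1% and 17.1% of all counts in R193H hearts and 16.6%, 17.0% and 16.6% in wild type hearts, where the groups overlapped.

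COX2 had 205, 164 and 192 CPM in R193H hearts, against 185, 200.4 and 231 CPM in wild type hearts. The groups overlapped, with R193H replicate 1 above wild type replicates 1 and 2. The log2 fold change in edgeR was -0.14 (SE 0.11, adjusted p = 0.90). It was -0.049 without R193H replicate 2 and -0.045 without wild type replicate 3.

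COX3 had the lowest fold change of the 6. It had 121, 111 and 120 CPM in R193H hearts, against 188, 171 and 136 CPM in wild type hearts. The R193H hearts lay close together and below all wild type hearts, while the wild type hearts were spread out. At -0.49 on the log2 scale (SE 0.11, edgeR adjusted p = 0.61) it was number 39 of 14370 genes in order of p. Its value ranged from -0.62 without wild type replicate 3 to -0.39 without wild type replicate 1. Its adjusted p was 0.033 in DESeq2 and 0.024 in edgeR with no low-count filter, and from 0.18 to 0.998 in the other alternatives, so whether COX3 is called depends on the test and the filter. COX3 was also the only member whose groups did not overlap as a share of all counts: 0.0123%, 0.0124% and 0.0120% in R193H hearts, against 0.0179%, 0.0162% and 0.0132% in wild type hearts. How many of all genes did not overlap on this scale was not counted.

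Of the complex V mRNAs, ATP6 had 113, 98.4 and 134 CPM in R193H hearts, against 162, 149 and 135 CPM in wild type hearts. R193H replicate 3 lay less than 1 CPM below wild type replicate 3, and as a share of all counts it lay above it (0.0134% and 0.0130%). For ATP6 the edgeR log2 fold change was -0.37 (SE 0.12, adjusted p = 0.72). ATP8 had 51.8, 44.2 and 60.4 CPM in R193H hearts, against 67.9, 70.4 and 53.2 CPM in wild type hearts, and the groups overlapped. It stood at -0.29 on the log2 scale (SE 0.14, edgeR adjusted p = 0.87).

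**Figure D2:**
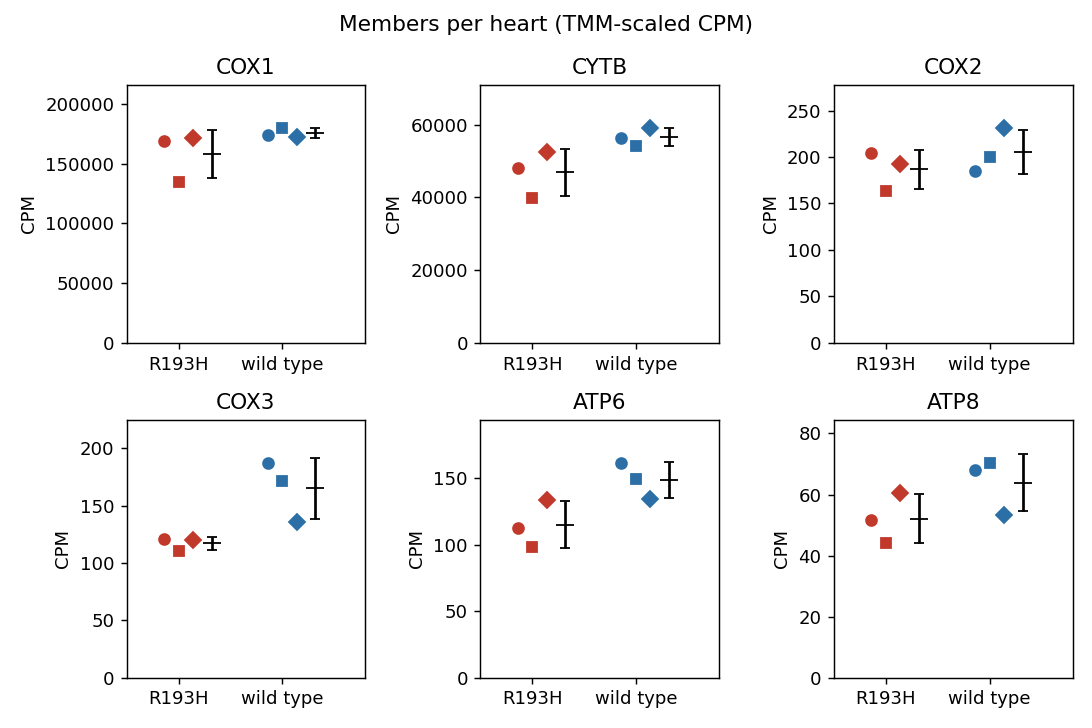
CPM of each mRNA in each heart, with R193H hearts in red and wild type hearts in blue; circles, squares and diamonds are replicates 1, 2 and 3 of a group (numbers that pair no hearts), and black bars give the mean ± SD of 3 hearts. On this TMM scale R193H replicate 2 is the lowest of the 6 hearts for every mRNA, and the wild type hearts spread most for COX3, at 136 to 188 CPM.

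The fold changes of COX1, COX2, CYTB and ATP8 moved by over 1.5 times without R193H replicate 2. On the TMM scale, where its library factor was the highest of the 6 hearts (1.12, against 0.947 to 1.02), it was the lowest heart for all 6 mRNAs. As a share of counts it was lowest for COX1, CYTB, ATP6 and ATP8, but wild type replicate 1 was lowest for COX2, and R193H replicate 3 for COX3. R193H replicate 2 stood apart on the first principal component of all tested genes (27.8% of the variance; -41.6, against -1.19 to 22.0 in the others), and 30.9% of its counts came from mitochondrially encoded genes, against 35.2% and 35.4% in R193H replicates 1 and 3 and 36.7% to 36.8% in wild type hearts. Without it, the log2 fold changes were -0.043 for COX1, -0.049 for COX2, -0.17 for CYTB, -0.18 for ATP8, -0.27 for ATP6 and -0.45 for COX3. Scaling by library totals gave -0.027 for COX1, -0.017 for COX2, -0.15 for CYTB, -0.17 for ATP8, -0.25 for ATP6 and -0.37 for COX3. That scaling moved the median over all genes to 0.13, so all 6 stayed below the median.

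**Figure D3:**
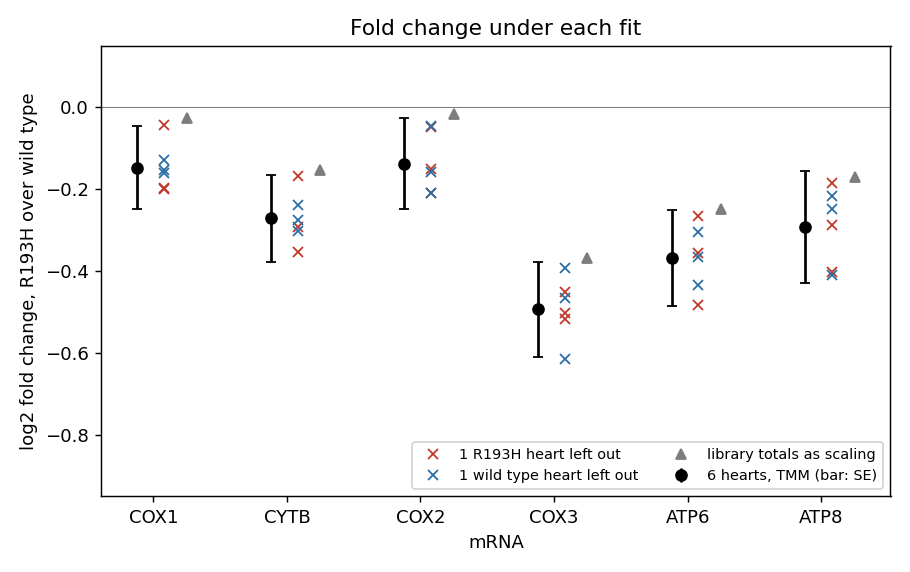
Log2 fold change of R193H over wild type for each mRNA: black points with SE bars from the fit of all 6 hearts, red and blue crosses with 1 R193H or 1 wild type heart left out, and grey triangles with library totals as scaling. All values are below 0, and COX3 is the lowest in each of these fits, from -0.62 to -0.37.

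Together the 6 mRNAs took 22.1%, 19.6% and 22.4% of all counts in R193H hearts and 22.1%, 22.2% and 22.4% in wild type hearts, of which COX1 and CYTB made up nearly everything. COX2, COX3, ATP6 and ATP8 together took 0.0499%, 0.0466% and 0.0506% in R193H hearts and 0.0576%, 0.0560% and 0.0537% in wild type hearts. These summed shares did not overlap, but taken singly COX2, ATP6 and ATP8 overlapped and only COX3 did not. How many of all genes did not overlap as a share of counts was not counted. As descriptions, these sums carry no test. Within the 13 mitochondrial mRNAs, the 6 made up 63.5%, 64.0% and 64.1% in R193H hearts against 62.1%, 61.5% and 62.0% in wild type hearts. The R193H hearts were therefore higher by this measure, and the 7 ND mRNAs correspondingly lower. The sum is mostly COX1, so the difference need not hold for each member. Within the 6, the mean share of COX1 was 77.0% in R193H and 75.4% in wild type hearts. The mean share of CYTB was 22.8% in R193H and 24.3% in wild type hearts, and the groups overlapped for both. ND5, a membrane subunit of complex I, had 31107 ± 3485 CPM in R193H and 43318 ± 698 CPM in wild type hearts (log2 fold change -0.48, SE 0.096, edgeR adjusted p = 0.53).

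Ratios of raw counts within a heart do not depend on library scaling. All 15 pairs of the 6 mRNAs were compared by exact two-sided permutation tests of the log2 ratio. The 20 assignments of 3 and 3 hearts allow no p under 0.1, and no pair passed (smallest p adjusted over the 15 pairs 0.5625). Differences of R193H minus wild type means ranged from -0.19 for COX3/ATP8 to 0.35 for COX2/COX3 on the log2 scale.

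COX1 over ATP6 was the 1 of 15 pairs whose groups did not overlap. Any 1 pair separates in this way in 0.1 of all assignments of the hearts, and 1 of 15 is not above that share. The ratio was 1497, 1370.2 and 1279.6 in R193H replicates 1, 2 and 3, against 1077, 1206 and 1278 in wild type replicates 1, 2 and 3. The difference of 0.22 on the log2 scale reached the smallest possible exact p of 0.1, with R193H replicate 3 and wild type replicate 3 almost equal. COX1 over COX3 was 1397, 1219 and 1427 in R193H hearts, against 928, 1049.5 and 1263 in wild type hearts (log2 difference 0.33, exact p = 0.2). Only wild type replicate 3 lay within the R193H range.

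COX1 over CYTB, the ratio of the most abundant mRNAs of complexes IV and III, was 3.51, 3.38 and 3.26 in R193H hearts, against 3.09, 3.32 and 2.91 in wild type hearts. Its log2 difference was 0.12 (exact p = 0.2), and wild type replicate 2 lay within the R193H range. COX1 over COX2 was 825, 824 and 889 in R193H hearts, against 939.97, 897 and 744 in wild type hearts (log2 difference -0.018, exact p = 0.9). The sign of this difference turned with single hearts left out, at -0.12 without wild type replicate 3 and 0.050 without wild type replicate 1.

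COX2 over COX3, both among the mRNAs with identical nuclear copies, varied most between wild type hearts. It was 1.69, 1.48 and 1.60 in R193H hearts, against 0.988, 1.17 and 1.70 in wild type hearts (log2 difference 0.35, exact p = 0.4). Wild type replicate 3 resembled the R193H hearts and the other wild type hearts did not. COX3 over ATP6, whose genes adjoin, was 1.07, 1.12 and 0.897 in R193H hearts, against 1.16, 1.15 and 1.01 in wild type hearts (log2 difference -0.11, exact p = 0.5). ATP6 over ATP8, which lie on 1 transcript with overlapping frames, was the steadiest in R193H hearts at 2.18, 2.23 and 2.22, against 2.38, 2.12 and 2.53 in wild type hearts (log2 difference -0.082, exact p = 0.4).

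The remaining 8 pairs overlapped between groups. Against COX2, CYTB was 235, 244 and 273 times as high in counts in R193H hearts and 305, 270 and 256 times in wild type hearts (log2 difference -0.14, exact p = 0.3). Against COX3, CYTB was 398, 361 and 438 times as high in R193H hearts and 301, 316 and 434 times in wild type hearts (0.20, exact p = 0.3). The R193H mean was below the wild type mean for the ratio to COX2 and above it for the ratio to COX3, with overlapping hearts in both. CYTB over ATP6 was 427, 406 and 393 in R193H hearts and 349, 363 and 439 in wild type hearts (0.096, exact p = 0.5).

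For ATP8, COX1 over it was 3263, 3049 and 2835 in R193H hearts and 2564, 2554 and 3229.9 in wild type hearts (log2 difference 0.14, exact p = 0.3). CYTB over ATP8 was 929.8, 903 and 870.3 in R193H hearts and 831, 769 and 1110.1 in wild type hearts. Its log2 difference of 0.014 (exact p = 1) changed sign with single hearts left out, from -0.093 without wild type replicate 2 to 0.17 without wild type replicate 3. In both ratios wild type replicate 3 stood above the other wild type hearts. Its ATP8 level was the lowest of that group and its CYTB level the highest.

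COX2 over ATP6 was 1.81, 1.66 and 1.44 in R193H hearts and 1.15, 1.34 and 1.72 in wild type hearts (log2 difference 0.24, exact p = 0.3). COX2 over ATP8 was 3.95, 3.70 and 3.19 in R193H hearts and 2.73, 2.85 and 4.34 in wild type hearts (0.16, exact p = 0.6). COX3 over ATP8 was 2.34, 2.50 and 1.99 in R193H hearts and 2.76, 2.43 and 2.56 in wild type hearts (-0.19, exact p = 0.2). Wild type replicate 3 again lay among or beyond the R193H hearts in both COX2 ratios.

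**Figure D4:**
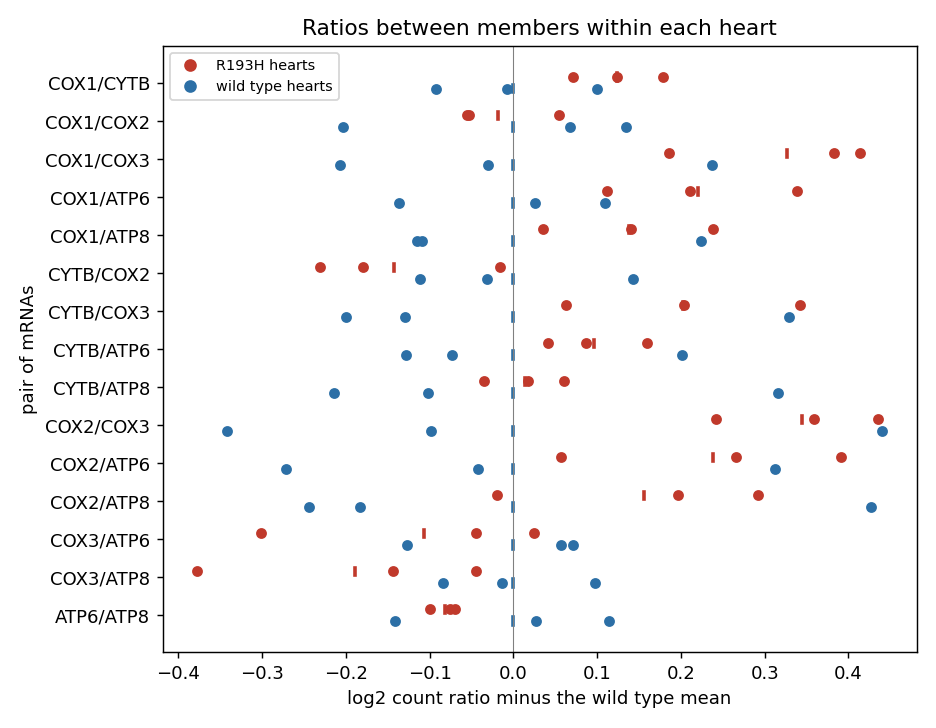
Log2 count ratio of each pair of mRNAs in each heart minus the wild type mean of that pair, with R193H hearts in red above wild type hearts in blue and a short line at each group mean. COX1/ATP6 is the 1 of 15 pairs without overlap, and wild type hearts spread most for COX2/COX3.

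Across the 6 hearts, log2 CPM of the members went together to different degrees. Pearson's r was 0.93 for ATP6 with ATP8, 0.89 for COX1 with CYTB and 0.89 for COX3 with ATP6. COX2 had r of 0.18 with COX3, 0.24 with ATP8 and 0.38 with ATP6, but 0.71 with COX1 and 0.76 with CYTB. All points share library scaling and the low R193H replicate 2, so these values are descriptions only. Among 7934 other genes with a mean of at least 10 CPM, those closest to COX1 by r over the 6 hearts were Phc3, Gpbp1l1, Afg3l2, Sos2 and Hspa9 (0.988 to 0.994), and those closest to COX3 were Zdhhc21, Zfp787, Gtl3, Mms19 and Npr2 (0.980 to 0.989). None of these 10 is mitochondrially encoded.

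The nuclear partners of these subunits were examined as lists, none with a member called in edgeR (smallest adjusted p = 0.50). Of 10 tested genes of complex III and its carrier cytochrome c, 7 had lower and 3 higher means (median log2 fold change -0.060). Uqcrc1, a core protein of the complex, stood at -0.15 (SE 0.086), and Cycs, cytochrome c, at 0.12 (SE 0.073). Of 16 nuclear genes of complex IV, 13 had lower means (median -0.086). The small subunit gene Cox7c stood at -0.50 (SE 0.15), with 22.9, 21.6 and 24.3 CPM in R193H hearts against 36.0, 37.0 and 24.5 CPM in wild type hearts. Cox7a1, the heart and muscle form of another small subunit, stood at -0.13 (SE 0.085) and Cox5a at -0.12 (SE 0.082). Of 17 genes of complex V, 14 had lower means (median -0.072). Atp5b and Atp5a1, the catalytic beta and the alpha subunit, stood at -0.15 (SE 0.082) and -0.12 (SE 0.079), and Atp5l, a membrane subunit, at 0.18 (SE 0.087).

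Assembly factors of complexes III to V had 11 lower and 16 higher means among 27 tested (median 0.036). Coa3, which binds newly made COX1, stood at 0.18 (SE 0.081), and Cox10, which makes haem for COX1, at -0.21 (SE 0.094). Of 19 genes of mitochondrial transcription and RNA processing, 15 had lower means (median -0.042). Lrpprc, which stabilises mitochondrial mRNAs, had 120, 135 and 133 CPM in R193H hearts against 197, 196 and 167 CPM in wild type hearts. All R193H hearts lay below all wild type hearts (log2 fold change -0.53, SE 0.093, edgeR adjusted p = 0.50). Tefm, an elongation factor of mitochondrial transcription, stood at 0.24 (SE 0.11). The 7 ND mRNAs had 6 lower means (median -0.26), and both mitochondrial ribosomal RNAs were lower, Rnr1 and Rnr2 at -1.32 and -1.33 (SE 0.32 and 0.20). Gm10222, the chromosome 1 copy of ND4L, was the 1 of 7 listed copies with a row of counts. Those of COX2, ATP6 and COX3 had none. All 294 bases of Gm10222 are identical to ND4L, so reads within it cannot be assigned to either by sequence. Gm10222 had 38.0, 31.5 and 43.9 CPM in R193H hearts against 55.3, 55.7 and 53.2 CPM in wild type hearts (log2 fold change -0.53, SE 0.11, edgeR adjusted p = 0.53). ND4L also stood at -0.53 (SE 0.14).

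Library totals were 19582600 to 21852210 counts in R193H and 14736067 to 20652534 counts in wild type hearts. Tnni3, the gene of cTnI, had 3641 to 3900 CPM in R193H and 3202 to 3466 CPM in wild type hearts (log2 fold change 0.18, SE 0.080, edgeR adjusted p = 0.86), and gene counts do not show the substitution. All 10 cardiomyocyte markers were detected in every heart; their summed level was 53043 to 56783 CPM in R193H and 58537 to 62796 CPM in wild type hearts, with 8 of 10 lower. Macrophage markers summed to 235 to 325 CPM in R193H and 186 to 218 CPM in wild type hearts, with 7 of 7 higher. The cardiomyocyte sum was lower in R193H hearts, as were the means of the 6 mitochondrial mRNAs, and the macrophage sum was higher. The part of either sum in the result was not tested. In bulk tissue, fewer cells of a type and less RNA per cell cannot be told apart. Among tested markers, those of endothelium (6 of 6), fibroblasts (7 of 7) and smooth muscle or pericytes (4 of 5) had higher means in R193H hearts, and those of atrium (5 of 5), erythroid cells (5 of 5), adipocytes (3 of 4) and skeletal muscle (2 of 3) lower means. The sums of these 7 lists overlapped between groups, and erythroid markers spread most, with 476 to 629 CPM in R193H and 257 to 3091 CPM in wild type hearts. Although 3 of 4 adipocyte markers had lower means, the mean adipocyte sum was higher in R193H (481 CPM) than in wild type hearts (436 CPM). Of the skeletal muscle list, Myh1, Myh2, Myh4 and Actn3 were not tested. Bmp10 (atrium) was at 0 in 2 hearts, Lep (adipocytes) in 4 and Myh4 (skeletal muscle) in all 6.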

How the data were processed

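The authors deposited raw counts of reads, 1 row per gene symbol and 1 column per heart. The submitters' processing notes name HISAT2 2.0.4 and GRCm38. The sources used here name no counting program, strand setting or annotation release. Columns were matched to hearts by title and hearts to groups by the genotype label. Replicate numbers follow the order of listing. The series design calls the hearts biological repeats, and every pair of libraries differed beyond sampling noise in a chi-square comparison.

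All genes were fitted together with edgeR 4.0.16 in R 4.3.3. The default filterByExpr kept 14370 genes and removed 30422. Libraries were scaled by TMM, and R193H was compared with wild type by the quasi-likelihood test with robust dispersions and no covariate. The SE is the absolute log2 fold change divided by the square root of F. Alternatives were DESeq2 1.42.0 (size factors and Wald test), limma-voom (limma 3.58.1), library totals, TMM without mitochondrial genes, other filters and each heart left out. Ratios used raw counts and exact permutation tests. Positions are from RefSeq GRCm38.p6 and sequences from GENCODE M21, whose coordinates for the 13 mRNAs are the same. Shared sequence means exact matches of 50, 100 or 150 bases. Named list genes are up to 4 per list by smallest p, and genes closest to COX1 and COX3 were taken by Pearson's r of log2 CPM (prior count 2). The members and lists were chosen with earlier results of these data known.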

Additional observations from a re-analysis of the deposited data

How the results depend on the processing

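All 6 log2 fold changes stayed below 0 under each of 13 alternatives. Of all genes, 1 was called with all hearts in edgeR, 38 with no low-count filter, 42 in DESeq2, and 3 to 21 with a heart left out. The number of members called was 0, and 1 (COX3) both with no filter and in DESeq2. The cause was not tested. As a log2 ratio of R193H over wild type, the summed share of the 6 mRNAs was -0.060, and it ranged from -0.095 to 0.0028 with a heart left out, turning positive without R193H replicate 2. Their share of the 13 mRNAs was 0.047 on that scale and 0.064 relative to all mitochondrially encoded genes. Among the ratios, COX1/COX2 ranged from -0.12 to 0.050 and CYTB/ATP8 from -0.093 to 0.17 with a heart left out. The other 13 pairs kept their direction in each alternative run, and adding 0.5 to each count turned none. Windows of 50 and 150 bases gave 51.1% and 23.6% sharing for COX1. No paired analysis was possible because the labels give the hearts no shared numbers. With 3 hearts a group, exact tests cannot go below 0.1. The p-values set the group difference against variation between these hearts only. Each member had at least 957 counts in every heart.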
